A study of Mus musculus with 20 samples.

Results

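The response of mouse bone marrow-derived macrophages to the LXR agonist GW3965, given alone, was measured against solvent across the whole transcriptome. The members were the 5 libraries titled GW3965 and the 5 titled DMSO, 10 of the 20 libraries of the series, chosen by title alone. Marrow of C57BL/6 female mice was grown with recombinant macrophage colony stimulating factor at 20 ng/mL (spelled M-DSF in the labels) until day 7, and the macrophages were then kept for 24 h with DMSO or with GW3965 at 1 µM. No genetic change is given for any group. A further group of 5 libraries, from cells kept with the NR0B2 agonist DSHN at 50 µM for the same time, was used only to ask whether genes named here differed between the 2 compounds. The 5 libraries with both compounds entered the fit for its estimate of the spread and were not compared. The labels call the 5 cultures of a group biological replicates but do not say whether each came from its own animal, so p-values measure the spread between these cultures. The series sets out to examine how NR0B2, a nuclear receptor described there as inhibiting LXR, acts on it, and the present comparison is the response to the LXR agonist without the NR0B2 ligand.

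LXR alpha (Nr1h3) and LXR beta (Nr1h2) are nuclear receptors for oxidised cholesterol. They sit on DNA as heterodimers with RXR at direct repeats of a hexamer, release corepressors when a ligand binds, and raise genes that export cholesterol, load it on lipoproteins and make fatty acids. In macrophages they are also known for restraining inflammatory genes and for supporting the uptake of dead cells.

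Library totals ran from 18082505 to 22417548 counts over the 10 libraries and no difference between the groups was detected (two-sided exact permutation test, p = 0.73). The first principal component of these 10 libraries held 52.7% of the variance and placed all 5 DMSO libraries on one side and all 5 GW3965 libraries on the other. The share of counts in the 100 most abundant genes was 22.2% ± 0.2 (SD, n = 5) with DMSO and 23.6% ± 0.599 with GW3965 (exact permutation, adjusted p = 0.0397 over 5 library measures), and that of the mitochondrial genome 0.123% ± 0.00964 and 0.141% ± 0.00706 (adjusted p = 0.0595). The part of these shares in the results below was not tested. Macrophage markers were abundant in every library, with Adgre1 (F4/80) at 1727 CPM ± 119.8 with DMSO (SD, n = 5 here and below) and 1763 CPM ± 152 with GW3965 and Csf1r, the receptor of the growth factor, at 1826 CPM ± 94.3 and 2049 CPM ± 216. Levels are CPM, the usual depth-scaled counts, after TMM scaling. Of 10 neutrophil markers 4 had no count in any of the 10 libraries, and the summed level of all 10 was 0.574 to 1.58 CPM with DMSO and 0.247 to 0.73 with GW3965. Globin genes (Hba-a1, Hba-a2, Hbb-bs, Hbb-bt) and Pax5, Cd8a and Epx had no count in any of them. Some other members of the same marker lists were expressed. Epor was called higher (0.885 CPM with DMSO and 1.497 CPM with GW3965, adjusted p = 0.00851). So were Cd4 (8.03 and 10.62 CPM, adjusted p = 0.0168) and Cd79b (5.29 and 6.44 CPM, adjusted p = 0.0309), while Trac was not (adjusted p = 0.833). The neutrophil marker S100a8 was called lower (0.814 and 0.438 CPM, adjusted p = 0.0153). Erythroid markers summed to 1.041 to 1.308 CPM with DMSO and 1.216 to 2.322 CPM with GW3965. Eosinophil markers, mostly Ccr3, summed to 28.85 to 32.55 and 8.067 to 9.043 CPM. Summed mast cell and basophil markers lay at 2.08 to 5 CPM with DMSO and 1.85 to 2.71 CPM with GW3965. Megakaryocyte markers, mostly Pf4 (152.7 and 150.4 CPM), lay at 148 to 185 and 148.5 to 163 CPM. Endothelial markers were at 18.8 to 20.6 and 15.9 to 17.7 CPM, monocyte markers at 30.8 to 37.0 and 26.7 to 32.4 CPM, and dendritic cell markers at 1.14 to 1.92 and 1.19 to 2.12 CPM. Members of these lists called lower were Mcpt8 (log2 fold change −0.75, adjusted p = 0.00224), Gata2 (−1.27, 0.00699), Ppbp (−1.23, 0.00112), Kdr (−0.69, 6.9e-06), Ccr2 (−0.28, 0.00534) and F13a1 (−0.25, 0.0414). Those called higher were Cdh5 (0.43, 0.0255), Egfl7 (0.63, 0.0354) and Clec9a (1.14, 0.0357). Of 6 genes read as signs of RNA quality 4 were matched in the files, and Rn18s and Rn45s were not. The matched genes summed to 1307 to 1706 CPM with DMSO and 1436 to 1915 CPM with GW3965. Among them the mitochondrial ribosomal RNAs mt-Rnr1 (log2 fold change 0.45, SE 0.090, adjusted p = 0.000501) and mt-Rnr2 (log2 fold change 0.19, SE 0.063, adjusted p = 0.0171) rose, the nuclear RNA Neat1 fell (log2 fold change −0.56, SE 0.21, adjusted p = 0.0403) and Malat1 was not called (log2 fold change 0.28, SE 0.28, adjusted p = 0.444). The call of Neat1 was lost under 10 alternatives (adjusted p up to 0.121) and that of mt-Rnr2 with scaling by total counts and without DMSO replicate 5 or GW3965 replicate 3 (up to 0.113). Their part in the results was not tested. Collagen genes of fibroblasts were present: summed over the 10 stromal markers the level was 2309 to 2904 CPM with DMSO and 2581 to 3372 with GW3965, mostly Col1a1 (log2 fold change 0.22, SE 0.081, adjusted p = 0.0314, lost under 8 alternatives with adjusted p up to 0.11) and Col1a2 (log2 fold change 0.090, SE 0.075, adjusted p = 0.351). Col3a1 had 208.7 CPM with DMSO and 236 CPM with GW3965, Pdgfrb 52.1 and 49.1 CPM, and Cxcl12, called higher, 25.7 and 47.3 CPM. Pdgfra had 5.10 and 5.37 CPM and Lepr 0.619 and 0.433 CPM. The stromal genes Dcn, Lum and Adipoq had 0 to 14 counts per library.

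Of 13307 genes with enough counts to be tested, 6181 passed edgeR's quasi-likelihood test at an adjusted p of 0.05 (46.4%), 3130 higher with GW3965 (23.5%) and 3051 lower (22.9%). With libraries scaled by total counts alone the split was 2262 higher and 3976 lower, and the median log2 fold change of all tested genes moved from 0.008 to −0.048. Most of the changes were small. Of the called genes 83.2% lay within 1.5-fold of DMSO and 95% within 2-fold, leaving 147 over 2-fold higher (1.1% of tested genes) and 159 over 2-fold lower (1.19%). Above 4-fold there were 31 rises and 13 falls, and above 8-fold 11 rises and 1 fall. The 5 and 5 libraries did not overlap for 32.1% of the tested genes. The counts in each gene list below are read against these shares.

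**Figure D1:**
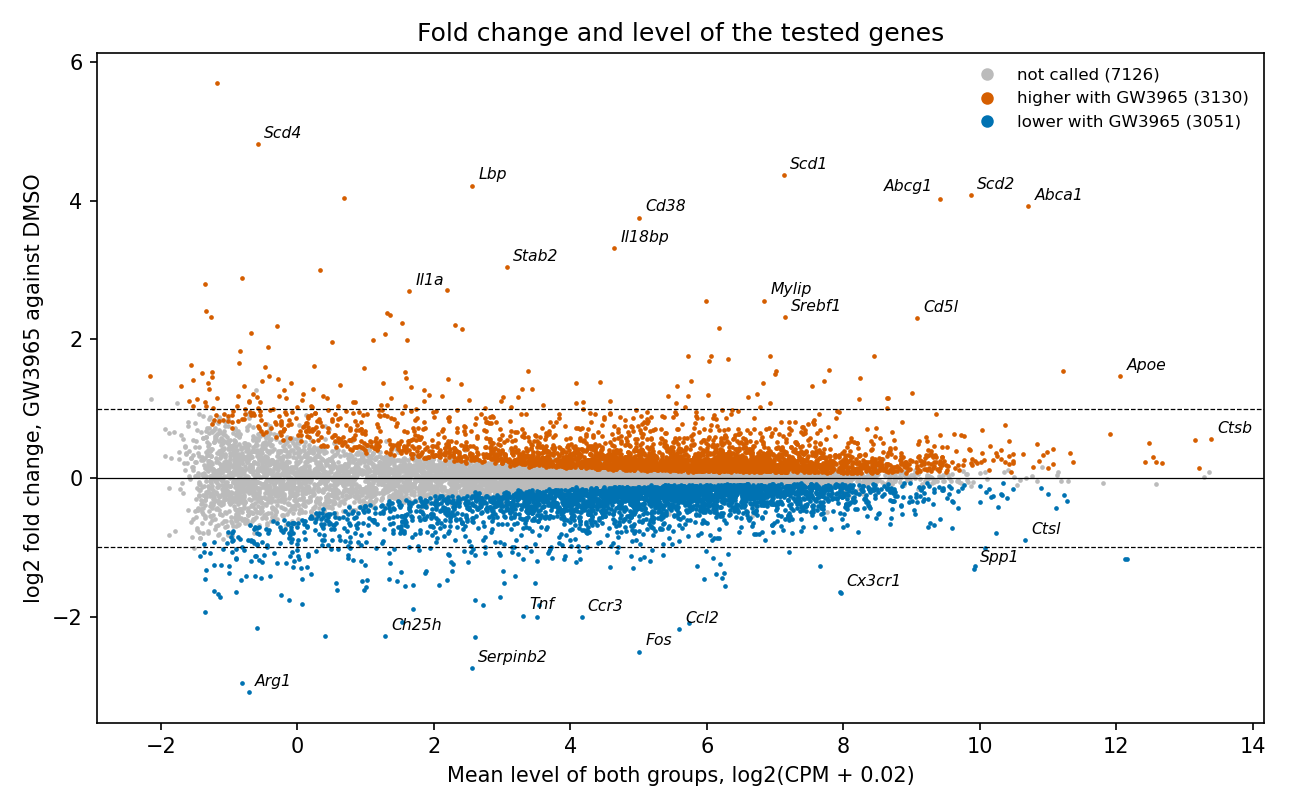
Log2 fold change of GW3965 against DMSO (vertical axis) against the mean level of both groups (horizontal axis, log2 of CPM plus 0.02) for the 13307 tested genes, 1 point a gene, coloured by call at an adjusted p of 0.05, with dashed lines at 2-fold. Rises reach further from 0 than falls, with Scd1, Scd2, Abcg1 and Abca1 high on both axes, and most called genes lie within the dashed lines.

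Textbook targets of LXR rose almost without exception, and Scd1, Scd2, Abcg1 and Abca1 were among the 5 largest rises of genes with at least 5 CPM in a group. Of 17 tested LXR target genes 16 rose and none fell, 13 of them over 2-fold, with a median log2 fold change of 1.76 (0.008 over all tested genes). The list was drawn from textbook targets with earlier results of these data known. Summed over the list, the level was 9001 to 9675 CPM in the DMSO libraries and 21660 to 24140 CPM with GW3965.

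Some of the genes over 2-fold higher carry the letters of an LXR element next to their start. The relaxed direct repeat was searched as GGTNA, then any 5 bases, then GGTNA again (N stands for any base), on both strands of the 250 bases before each start in RefSeq's promoter table (GRCm38.p6, which matched 10332 of the tested genes). It was found in 49 of 13248 windows of tested genes (0.37%), in 5 of 132 windows of genes over 2-fold higher (3.79%) and in 0 of 142 windows of genes over 2-fold lower. The 5 genes were Abca1 and Srebf1, both on the list of LXR targets above, and Acsl3, Fasn and Gdf15, which are not on it. The stretches of the first 4, which include the cholesterol exporter and the master gene of fatty acid synthesis, are shown with 22 bases on each side, read 5′ to 3′ in the direction of the gene, and the capitals mark the matched letters, which here lie on the opposite strand.
Abca1: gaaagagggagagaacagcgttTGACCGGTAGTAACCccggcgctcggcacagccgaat
Srebf1: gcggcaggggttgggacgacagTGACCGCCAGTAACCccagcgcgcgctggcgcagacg
Acsl3: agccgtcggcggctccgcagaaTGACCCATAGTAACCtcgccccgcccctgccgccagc
Fasn: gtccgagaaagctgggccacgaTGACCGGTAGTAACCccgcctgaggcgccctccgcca
They lie at chr4:53159926-53159984 on the minus strand, chr11:60210617-60210675 on the minus strand, chr1:78657691-78657749 on the plus strand and chr11:120824736-120824794 on the minus strand of GRCm38.p6, at bases −67 to −53, −182 to −168, −112 to −98 and −225 to −211 from their starts. Abca1 and Fasn share the same 15 matched bases, TGACCGGTAGTAACC. Over all 48 tested genes with the repeat, 18 were called higher (37.5%) and 5 lower (10.4%), against 24.2% and 23.7% of the genes with any window in the table. A match to letters is a description of the sequence and no measure of binding, and genes with no match in this window may carry elements elsewhere.

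The receptors themselves changed little. Nr1h2 had 51.7, 52.4, 50.7, 49.3 and 53.9 CPM in the 5 DMSO libraries and 58.02, 57.4, 54.2, 56.3 and 54.98 CPM with GW3965 (log2 fold change 0.12, SE 0.042, adjusted p = 0.0167), and the lowest GW3965 library lay just above the highest DMSO library. That call was lost with scaling by total counts (adjusted p = 0.207) and without DMSO replicate 4 or GW3965 replicate 1 or 2 (0.0559 to 0.0688). Nr1h3, whose human counterpart is known to raise its own transcription, stood at −0.0055 on that scale (SE 0.073, adjusted p = 0.961). Per kilobase of exon, Nr1h2 stood at 14.1 to 15.3 FPKM (DMSO to GW3965 mean) and Nr1h3 at 6.51 to 6.47 FPKM. Their partner Rxra rose from 103 CPM ± 3.49 with DMSO to 131 CPM ± 5.93 with GW3965 (log2 fold change 0.34, SE 0.037, adjusted p = 1.04e-08). Of 18 tested genes for receptors and cofactors 7 rose and 2 fell, with the coactivator Crebbp among the rises (0.30, SE 0.042). Nr0b2, the gene of the receptor that DSHN activates, had 3 to 8 counts per library with DMSO and 0 to 4 with GW3965 and was too low to be tested.

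The sterol exporters were among the largest rises. Abca1, which loads cholesterol onto apolipoprotein A1 (GeneID 11303, chromosome 4, 53030789 to 53159988 in GRCm39), had 229.7, 264, 219, 173 and 157 CPM in the DMSO libraries and 3613, 3314, 3139.9, 2827 and 2856 CPM with GW3965. The lowest GW3965 library was above the highest DMSO library by more than 10-fold (log2 fold change 3.92, SE 0.16, adjusted p = 3.67e-12). Within each group libraries 4 and 5 were the lowest. Abcg1, which passes cholesterol to mature HDL, had 78.2, 97.4, 91.8, 66.2 and 60.3 CPM and 1436, 1316, 1304, 1149.5 and 1227 CPM (log2 fold change 4.03, SE 0.13, adjusted p = 4.59e-14), also with libraries 4 and 5 lowest in each group. Mexis, a long noncoding RNA that neighbours Abca1 on chromosome 4, rose from 0.831 CPM ± 0.179 with DMSO to 4.27 CPM ± 0.434 with GW3965 (log2 fold change 2.35, SE 0.15, adjusted p = 7.55e-14). Abca9, an ABC transporter of less known substrate, rose by 0.59 (SE 0.12).

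Genes of lipoproteins and of their remodelling rose together. Apoe, the apolipoprotein that macrophages secrete with exported cholesterol, had 2240.4, 2449, 2339.9, 2182 and 2102 CPM with DMSO and 7007, 6580.5, 6378, 5463 and 5926 CPM with GW3965, with no overlap (log2 fold change 1.47, SE 0.060, adjusted p = 1.04e-15). Its neighbour Apoc1 had 1 count over all DMSO libraries and 82 over the GW3965 libraries, a ratio of 83.8 with a 95% counting interval of 14.6 to 3350, where the interval covers counting error only. Pltp, the phospholipid transfer protein, rose from 160.3 CPM ± 17.4 with DMSO to 542 CPM ± 72.4 with GW3965 (log2 fold change 1.76, SE 0.10, adjusted p = 2.36e-10). Exons of Pltp overlap those of Ctsa over 26.8% of its length, and the counting commands name no strand, so reads from that stretch cannot be told apart. Lpl, lipoprotein lipase, rose less (log2 fold change 0.30, SE 0.042, adjusted p = 7.31e-07), though from a high level of 5342 CPM ± 172. Lpcat3, which puts polyunsaturated chains on phospholipids, rose by 1.72 (SE 0.040). Mylip, a ubiquitin ligase of sterol uptake, had 32.7, 38.8, 36.2, 30.4 and 27.5 CPM with DMSO and 199, 206, 209, 181 and 186 CPM with GW3965 (log2 fold change 2.56, SE 0.066, adjusted p = 7.94e-20). The remaining targets that rose were Cd5l, a secreted survival factor of macrophages (2.31), Mertk, a receptor for dead cells (1.40), Arl4c, a small GTPase (1.16), and Smpdl3a, a phosphodiesterase (0.40).

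**Figure D2:**
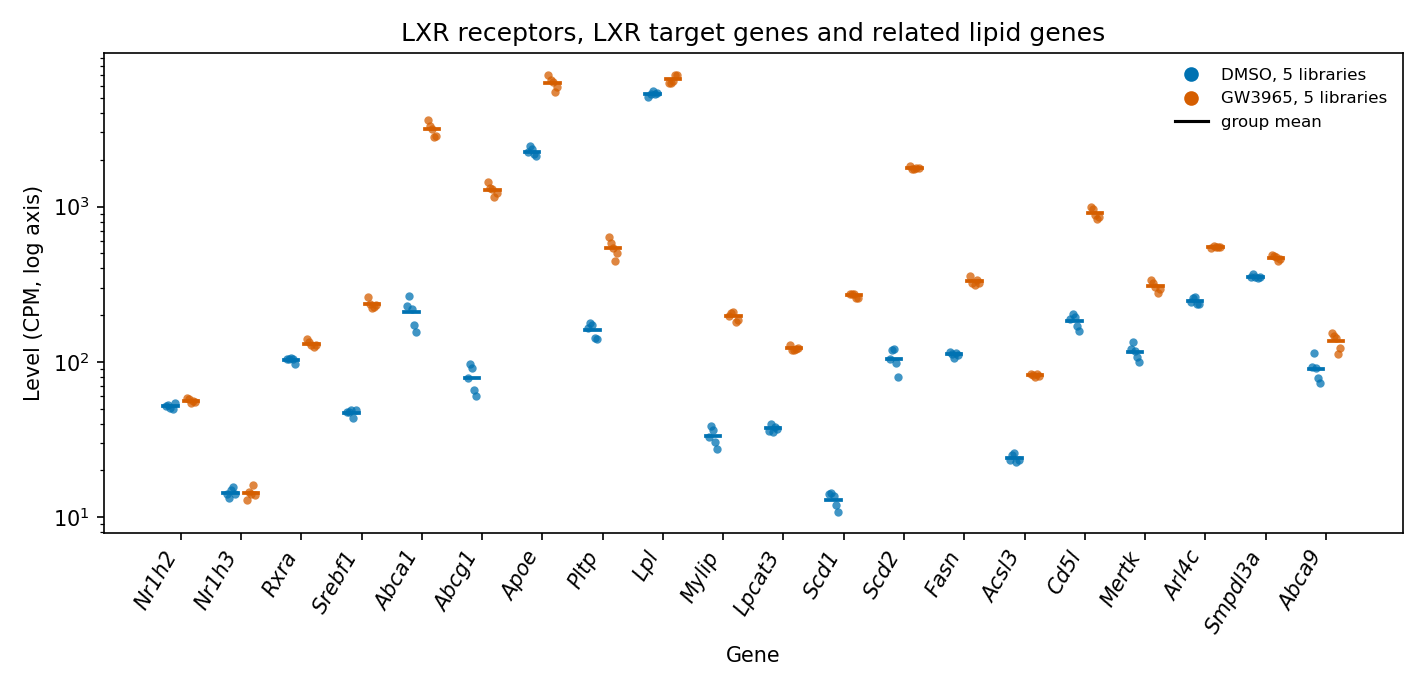
Level in CPM on a log axis of the LXR receptors, LXR target genes and related lipid genes in each of the 5 DMSO and 5 GW3965 libraries (points) with the group means (bars). Nr1h2 and Nr1h3 lie close together in both groups, while the GW3965 libraries of Srebf1, Abca1, Abcg1, Mylip, Scd1 and Scd2 lie wholly above the DMSO libraries.

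Fatty acid synthesis rose at several steps. Srebf1, the transcription factor of lipogenesis (GeneID 20787, chromosome 11, 60089910 to 60113407), had 47.2, 47.2, 48.8, 43.5 and 49.01 CPM with DMSO and 260.1, 236, 221, 227 and 232 CPM with GW3965, with no overlap (log2 fold change 2.32, SE 0.048, adjusted p = 2.61e-25). Of 17 tested genes of the pathway 11 rose and 0 fell (10 and 1 with scaling by total counts alone), with a median log2 fold change of 0.34. Fasn, fatty acid synthase, rose from 112 CPM ± 3.59 with DMSO to 329.8 CPM ± 18.2 with GW3965 (log2 fold change 1.56, SE 0.056, adjusted p = 1.09e-17). Acaca, which makes malonyl-CoA, rose by 0.86 (SE 0.061) and the citrate lyase Acly by 0.25 (SE 0.037). Among the ligases that charge fatty acids with coenzyme A, Acsl3 (1.77) and Acsl4 (1.14) rose, while Acsl1 had −0.065 (adjusted p = 0.267) and Acsl5 −0.0041 (adjusted p = 0.93). Mid1ip1, which activates acetyl-CoA carboxylase, rose by 1.02, and Acss2, which makes acetyl-CoA from acetate, by 1.18. NADPH for the pathway comes in part from Idh1, which rose by 1.16 (SE 0.052). In the list of pentose phosphate and other NADPH enzymes 10 of 18 rose and 2 fell (9 and 4 with scaling by total counts alone).

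The stearoyl-CoA desaturases, which introduce the first double bond into saturated fatty acids, lie side by side on chromosome 19 and 3 of the 4 rose. Scd2 had 105, 119.6, 120.1, 97.7 and 79.3 CPM with DMSO and 1823, 1735, 1757, 1769 and 1776 CPM with GW3965 (log2 fold change 4.08, SE 0.088, adjusted p = 6.71e-18). Scd1 had 14.1, 14.2, 13.6, 11.9 and 10.8 CPM and 275, 272, 275, 256 and 259 CPM (log2 fold change 4.37, SE 0.086, adjusted p = 2.66e-20), the largest rise among named genes with at least 5 CPM in a group. Scd4 went from 0 to 2 counts per library to 18 to 29 (log2 fold change 4.81, SE 0.45, adjusted p = 5.39e-10). Scd3, whose gene stands beside them, had no count with DMSO and 1 count over all GW3965 libraries. Per kilobase of exon, Scd2 went from 19.1 to 325 FPKM and Scd1 from 2.67 to 55.3 FPKM. These genes are close paralogs, and reads that fit several of them cannot be assigned with certainty from the counts.

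Further along, Fads2, the delta-6 desaturase of polyunsaturated fatty acids, rose from 18.4 CPM ± 2.15 with DMSO to 109 CPM ± 3.54 with GW3965 (log2 fold change 2.56, SE 0.065, adjusted p = 2.15e-22), Fads1 by 0.48 (SE 0.040) and Elovl5 by 0.63 (SE 0.032). Elovl6, which lengthens palmitate, was at −0.028 (SE 0.078, adjusted p = 0.796). Over desaturases and elongases 9 of 18 rose and 3 fell (8 and 5 with scaling by total counts alone), the falls being Elovl7 (−1.28), Hacd2 (−0.24) and Hacd3 (−0.14). Enzymes of triglycerides, phospholipids and lipid droplets went both ways, with 17 of 35 higher and 11 lower (12 and 12 with scaling by total counts alone). Soat1, which esterifies cholesterol, rose by 0.53 (SE 0.048) and Lpin1, a phosphatidate phosphatase, by 1.08 (SE 0.13), while Mboat1, a lysophospholipid acyltransferase, fell by 1.09 on the log2 scale, with exons that overlap another gene model over 34.5% of their length.

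Cholesterol synthesis rose almost as a whole, by smaller steps. Of 22 tested enzymes 20 rose and 0 fell, with a median log2 fold change of 0.47, and the summed level was 814 to 829.7 CPM with DMSO and 1076 to 1183 CPM with GW3965. Fdps, which makes farnesyl diphosphate, had 37.7, 37.6, 41.2, 41 and 39.1 CPM with DMSO and 72.2, 69.8, 75.6, 82.3 and 79.6 CPM with GW3965, with the GW3965 libraries all above the DMSO libraries (log2 fold change 0.95, SE 0.047, adjusted p = 4.16e-16). Mvd rose by 1.02 (SE 0.10), Lss, the cyclase of squalene epoxide, by 0.76 (SE 0.048) and the reductase Dhcr7 by 0.69. Hmgcs1, an early enzyme of the pathway, rose by 0.52 (SE 0.040). The exceptions were Sqle (0.10, adjusted p = 0.108) and Hsd17b7 (−0.071, adjusted p = 0.455). The sterol regulatory element TCACNCCAC, to which the SREBP factors bind, was found in 1.03% of the windows of tested genes, 2.27% of those over 2-fold higher and 1.41% of those over 2-fold lower. Hmgcs1 holds it at bases −137 to −129 (chr13:119690192-119690244 on the plus strand), shown with the match in capitals as an example from this pathway.
Hmgcs1: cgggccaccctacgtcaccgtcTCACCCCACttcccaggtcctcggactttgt
The CCAAT box, letters CCAAT, was in 35% of the windows of tested genes, 40.9% of those over 2-fold higher and 25.4% of those over 2-fold lower, and the E-box CACGTG in 8.18%, 7.58% and 9.15%.

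Among the genes that control sterols, 11 of 20 rose and 2 fell, 1 without GW3965 replicate 4. Insig1, which holds SREBP in the endoplasmic reticulum, had 61.4, 59.8, 62.3, 58.6 and 57.7 CPM with DMSO and 132, 129, 134, 142 and 135 CPM with GW3965 (log2 fold change 1.16, SE 0.039, adjusted p = 2.16e-20). Srebf2, the factor of cholesterol synthesis, rose by 0.28 (SE 0.034), and Gramd1b, which moves cholesterol from the plasma membrane, by 1.32 (SE 0.051). Cyp27a1, which makes 27-hydroxycholesterol, rose by 1.08 (SE 0.11). Ch25h, which makes 25-hydroxycholesterol, fell from 3.42, 2.89, 3.52, 5.27 and 4.96 CPM to 0.337, 0.692, 0.601, 1.17 and 1.18 CPM, so these oxysterol-forming enzymes moved in opposite directions (log2 fold change −2.28, SE 0.22, adjusted p = 1.33e-09 for Ch25h).

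Large rises were also seen in Lbp, Cd38, Il18bp and Stab2. Lbp, which presents lipopolysaccharide to CD14, had 0.676, 0.7101, 0.458, 0.522 and 0.5997 CPM with DMSO and 12.9, 12.3, 10.7, 9.77 and 10.3 CPM with GW3965 (log2 fold change 4.22, SE 0.15, adjusted p = 1.35e-19). Cd38, which consumes NAD, had 4.91, 4.45, 5.22, 3.599 and 3.87 CPM and 60.7, 66.1, 60.1, 58.96 and 54.8 CPM (log2 fold change 3.76, SE 0.083, adjusted p = 7.27e-25), while its neighbour Bst1, which encodes a related enzyme, fell from 19.5 CPM ± 1.07 with DMSO to 14.7 CPM ± 1.03 with GW3965 (log2 fold change −0.41, SE 0.072, adjusted p = 2.57e-05). The groups did not overlap for Lbp or for Cd38. Il18bp, the secreted inhibitor of interleukin 18, rose from 4.51 CPM ± 0.642 with DMSO to 45.4 CPM ± 2.27 with GW3965 (log2 fold change 3.32, SE 0.074, adjusted p = 7.27e-25). Its exons overlap those of Rnf121 over 29.4% of their length. Il18rap, a chain of the interleukin 18 receptor, fell from 2.94 CPM ± 0.409 with DMSO to 0.948 CPM ± 0.184 with GW3965 (log2 fold change −1.61, SE 0.17, adjusted p = 8.86e-09). Stab2, a scavenger receptor for hyaluronan and phosphatidylserine, rose from 1.803 CPM ± 0.337 with DMSO to 14.95 CPM ± 1.73 with GW3965 (log2 fold change 3.04, SE 0.12, adjusted p = 5.93e-19), and Has2, which makes hyaluronan, fell by 1.51 on the log2 scale (SE 0.11).

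Interleukin 1 genes did not move together. Il1a had 1.04, 0.805, 1.14, 0.574 and 0.491 CPM with DMSO and 4.72, 6.18, 5.41, 5.04 and 5.57 CPM with GW3965 (log2 fold change 2.70, SE 0.16, adjusted p = 3.51e-14), although its exons overlap those of the gene model Gm14023 over 11.2% of their length. Il1b next to it had 0.694 CPM ± 0.174 and 0.435 CPM ± 0.225 (log2 fold change −0.65, SE 0.55, adjusted p = 0.354), and Il1rn, the receptor antagonist, fell by 0.39 on the log2 scale (SE 0.069). Il1rl1, the receptor of interleukin 33, fell from 6.71 CPM ± 0.852 with DMSO to 2.39 CPM ± 0.355 with GW3965.

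Other large rises were in Paqr9 (2.71), Cfap126 (2.21), Eepd1 (2.16), Calhm6 (2.15) and Tmem86a (1.76), which encodes a lysoplasmalogenase. There were 67 called genes with a mean under 1 CPM in DMSO and at least 1 CPM with GW3965. Beside Scd4, Lbp, Il1a and Mexis the largest of these rises were in Ccdc148 (4.04, SE 0.28), Bach2os (2.996, SE 0.24, overlapping Bach2 over 30.3% of its exons), Clec1b (2.38, SE 0.18) and the potassium channel gene Kcna2 (2.23, SE 0.21).

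**Figure D3:**
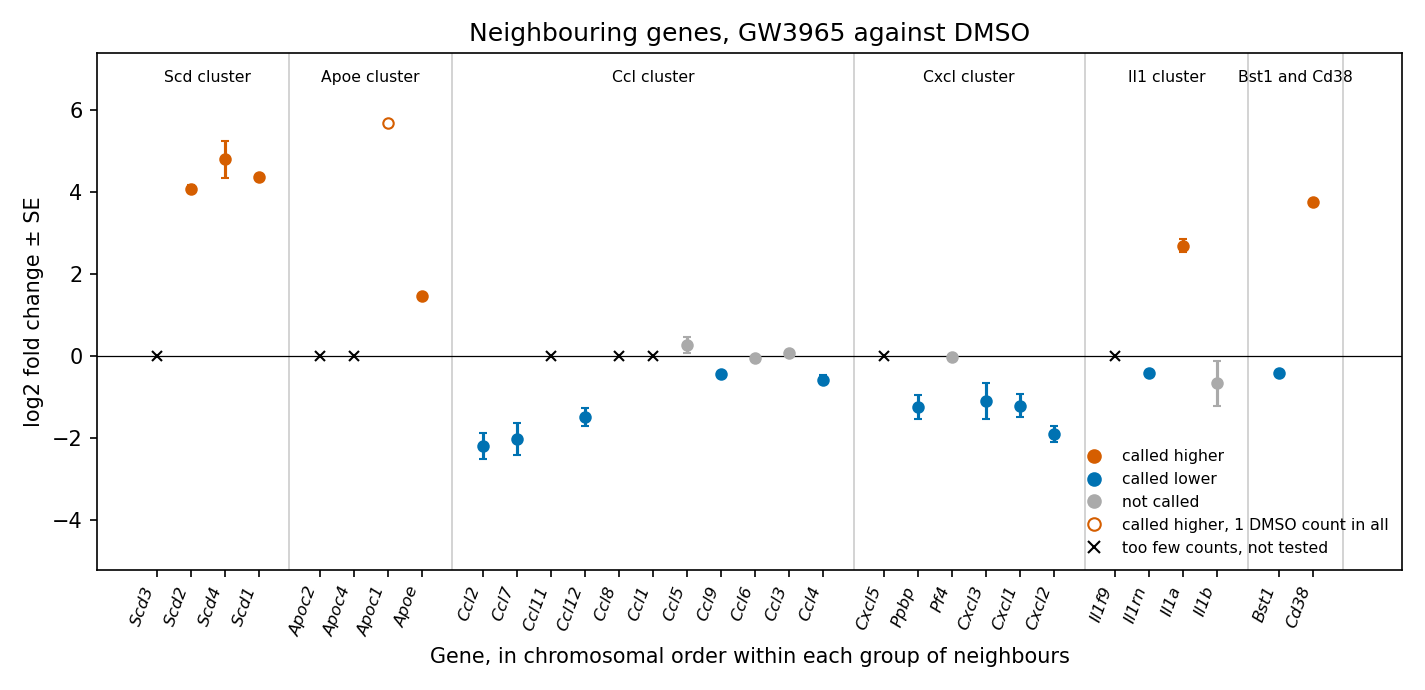
Log2 fold change of GW3965 against DMSO with its standard error for groups of genes on the same chromosome, in their order, coloured by call. Crosses mark genes with too few counts to be tested and an open circle marks Apoc1, which had 1 DMSO count in all. Genes of a group lie near each other, except in the interleukin 1 group on chromosome 2. There Il1f9 and Il1rn start at 24076488 and 24226872, far from Il1a and Il1b at 129141530 and 129206490. Scd2, Scd4 and Scd1 rose beside Scd3, which is marked with a cross, and Cd38 rose where Bst1 fell. Ccl2, Ccl7, Ccl12, Ccl9 and Ccl4 fell while Ccl3, Ccl5 and Ccl6, which lie among the last of these, were not called.

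Genes of early signalling and inflammation were among the largest falls. Of 37 tested AP-1 and immediate early genes 23 fell and 4 rose, with a median log2 fold change of −0.47. Fos had 58.9, 44.7, 46.1, 58.5 and 66.3 CPM with DMSO and 8.82, 10.4, 8.17, 11.4 and 9.27 CPM with GW3965, with no overlap (log2 fold change −2.50, SE 0.11, adjusted p = 8.25e-14). Egr2 (−0.998), Dusp1 (−1.14), Nr4a1 (−1.21), Egr1 (−0.91) and Myc (−0.76) fell, and so did Ets2 (−1.56), a target of the ERK pathway. Ccnd1, cyclin D1, which growth factors raise, had 376, 288, 322, 427 and 477 CPM and 86.6, 95.9, 97.2, 182 and 138 CPM (log2 fold change −1.65, SE 0.20, adjusted p = 3.15e-06). Libraries 4 and 5 were the highest of each group for Ccnd1, and its exons overlap another gene over 21.7% of their length. Among the 4 that rose were Batf (0.45, lost under 7 alternatives, adjusted p up to 0.107), Atf3 (0.21) and Jund (0.17). With scaling by total counts 2 rose and 26 fell.

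Chemokine ligands fell more often than they rose, 11 of 20 against 2, with a median log2 fold change of −0.76. Ccl2, the main attractant of monocytes, had 89.9, 42.7, 54.1, 93.9 and 118 CPM with DMSO and 11.7, 14.1, 10.97, 30.4 and 19.2 CPM with GW3965. The groups did not overlap, but the spread was wide and library 4 or 5 was the highest in each (log2 fold change −2.18, SE 0.31, adjusted p = 2.17e-05). Ccl7 (−2.01) and Ccl12 (−1.48), its neighbours on chromosome 11, also fell. Further along that chromosome Ccl9 (−0.43, SE 0.042, adjusted p = 1.24e-09) and Ccl4 (−0.57, SE 0.11, adjusted p = 0.0001) fell. Ccl6 had −0.047 (SE 0.046, adjusted p = 0.429) and Ccl3 0.092 (SE 0.075, adjusted p = 0.336). On chromosome 5 Cxcl2 (−1.89), Cxcl1 (−1.20) and Ppbp (−1.23) fell and Pf4 between them had −0.020 (SE 0.066, adjusted p = 0.831). Cxcl3 was called lower too, from 0.532 CPM, a call that was lost with DESeq2 (adjusted p = 0.0565) and on leaving out any of 7 single libraries (up to 0.152). The ligands that rose were Cxcl12 (0.88, SE 0.14), which stromal cells also make, and Cxcl16 (0.16). Of the receptors 5 of 10 fell and 4 rose. Ccr3 had 30.1, 27.6, 27.96, 27.3 and 30.5 CPM and 7.41, 6.62, 6.66, 7.43 and 7.496 CPM (log2 fold change −2.01, SE 0.079, adjusted p = 9.62e-19), and Cx3cr1, the fractalkine receptor of monocytes and resident macrophages, 371, 397, 391, 352 and 361 CPM and 116, 104, 116, 136 and 127 CPM (log2 fold change −1.64, SE 0.058, adjusted p = 2.38e-17). Ccr3 also marks eosinophils. Of the other eosinophil markers, Siglecf was not called (log2 fold change −0.46, SE 0.20, adjusted p = 0.056). Prg2 and Il5ra had 0 to 1 counts per library and the granule gene Epx had none. The part of eosinophils in the fall of Ccr3 was not tested. Cxcr4 rose by 0.64 (SE 0.13).

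Tnf and Ptgs2 were lower with GW3965. Tnf had 18.8, 10.7, 12.5, 15.96 and 21.2 CPM with DMSO and 2.81, 3.51, 2.71, 5.77 and 4.88 CPM with GW3965, all GW3965 libraries below all DMSO libraries (log2 fold change −1.98, SE 0.21, adjusted p = 2.36e-07). Ptgs2, cyclooxygenase 2, had 20.5, 15.8, 16.2, 17.9 and 20.8 CPM and 4.27, 5.93, 4.21, 6.08 and 4.98 CPM (log2 fold change −1.83, SE 0.11, adjusted p = 3.61e-13). Of the inflammatory cytokine and enzyme genes 10 of 23 fell and 5 rose, Il18bp and Il1a among the latter. In the NF-kB family with its feedback inhibitors 13 of 26 fell and 3 rose, mostly by little: the median was −0.11. The inhibitors Nfkbia (−0.30), Tnfaip3 (−0.28) and Tnip3 (−1.38) fell, Tnfaip2 (1.44) and Rel (0.34) rose, and the subunit genes Rela (0.039, adjusted p = 0.439) and Relb (−0.025, adjusted p = 0.794) were not called. Nos2, the inducible nitric oxide synthase of stimulated macrophages, had 2 counts over the 5 DMSO libraries and none with GW3965. Arg1, the arginase of alternative activation, fell from 1.17, 0.757, 1.19, 0.991 and 1.199 CPM with DMSO to 0.169, 0.0494, 0, 0.135 and 0.247 CPM with GW3965 (log2 fold change −3.09, SE 0.39, adjusted p = 1.8e-07).

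Genes that sense lipopolysaccharide went both ways, 14 of 33 higher and 13 lower (11 and 14 with scaling by total counts alone). Cd14 fell from 239 CPM ± 18.3 with DMSO to 147 CPM ± 4.28 with GW3965 (log2 fold change −0.71, SE 0.047, adjusted p = 3.86e-13), while Lbp, Tlr4 (0.31), Ly96 (0.46) and Ly86 (0.60) rose. The type I interferon response was mostly not called in the main fit, with 6 of 44 genes higher and 4 lower (4 and 6 with scaling by total counts alone), and 11 were lower without DMSO replicate 2. With the replicate number as a block, 8 were higher and 22 lower. Isg15 had −0.36 (SE 0.22, adjusted p = 0.206). Irf8, which shapes the macrophage lineage, rose by 0.79 (SE 0.040). Receptors and regulators of G protein signalling split 13 higher and 15 lower of 35, with Rgs1 (−2.09), Gpr84 (−1.71) and the C5a receptor C5ar1 (−0.70) lower and the purine receptor genes P2ry13 (1.38) and P2ry12 (0.81) higher.

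**Figure D4:**
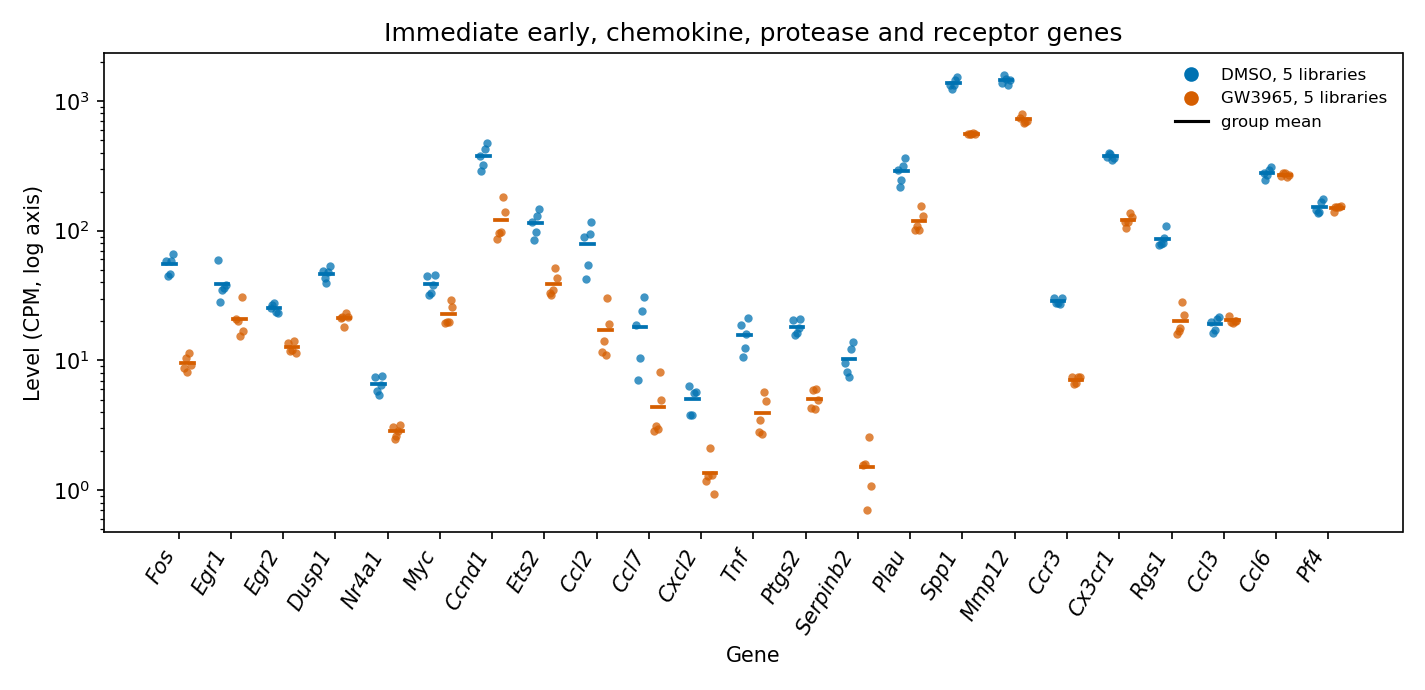
Level in CPM on a log axis of immediate early, chemokine, protease and receptor genes in each of the 5 DMSO and 5 GW3965 libraries (points) with the group means (bars). The groups are apart for Fos, Ccl2, Tnf, Ptgs2, Serpinb2, Ccr3 and Cx3cr1 and overlap for Ccl3, Ccl6 and Pf4.

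In the matrix, metalloproteinase and plasminogen list 20 of 38 fell and 5 rose, and 3 rose with scaling by total counts alone or without DMSO replicate 5. Serpinb2, an inhibitor of plasminogen activators, had 9.64, 8.14, 7.46, 12.2 and 13.8 CPM with DMSO and 1.57, 1.58, 0.701, 2.57 and 1.08 CPM with GW3965 (log2 fold change −2.74, SE 0.24, adjusted p = 5.59e-09), the largest fall among named genes with at least 5 CPM in a group. Plau, the urokinase, fell by 1.27 on the log2 scale (SE 0.15) and its receptor gene Plaur fell by 1.30 (SE 0.093). Spp1, osteopontin, had 1316, 1234, 1333, 1454 and 1533 CPM and 553, 552, 554, 568 and 556 CPM, with no overlap (log2 fold change −1.30, SE 0.047, adjusted p = 6.27e-19). Mmp12 (−1.002), Mmp13 (−1.45) and Adam8 (−1.27) fell, while Mmp27 rose by 1.003 (SE 0.063). Of 20 integrin genes 12 fell and 3 rose, with Itgax (CD11c, −1.27), Itga5 (−0.58), Itgav (−0.51) and Itgam (CD11b, −0.42) among the falls.

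The falls were set beside the DSHN libraries by a direct test of GW3965 against DSHN in the same fit, in which 17% of the tested genes were called, 8.26% higher with GW3965 and 8.72% lower. The doses differ, 1 µM and 50 µM, and this comparison shares its GW3965 libraries with the one against DMSO. For Serpinb2 the mean with DSHN was 2.11 CPM, and GW3965 against DSHN was −0.48 (adjusted p = 0.335). Ccl2 had 26.6 CPM with DSHN and a difference of −0.61 (adjusted p = 0.264), and Ptgs2 6.47 CPM and −0.33 (adjusted p = 0.0831). A p that misses the threshold does not show that these 3 levels were equal. Fos (−0.57, adjusted p = 0.0024), Tnf (−0.97, adjusted p = 0.00481), Ccr3 (−0.91, adjusted p = 1.33e-09) and Cx3cr1 (−0.62, adjusted p = 8.22e-09) were lower with GW3965 than with DSHN. Abca1 (3.46), Scd1 (4.35), Srebf1 (2.35) and Fdps (0.96) were higher with GW3965 than with DSHN, with adjusted p values of 3.39e-11, 3.06e-20, 1.89e-25 and 4.56e-16. Slc40a1, the iron exporter, differed by 0.21 (adjusted p = 0.000474) from DSHN and by 1.23 from DMSO.

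Genes of DNA replication and mitosis were lower with GW3965. Of 56 replication genes 54 fell and 0 rose (median −0.60), and of 58 mitotic genes 52 fell and 1 rose (median −0.32). In the replication list the summed level was 4251 to 4820 CPM with DMSO and 2798 to 3448 CPM with GW3965, without overlap. Mcm2, a subunit of the replicative helicase, had 95.3, 84.6, 83.2, 98.1 and 106 CPM with DMSO and 44.04, 44.1, 46.1, 63.1 and 59.1 CPM with GW3965 (log2 fold change −0.86, SE 0.10, adjusted p = 1.63e-06). Libraries 4 and 5 were the highest in both groups. Ccne1 (−1.05) and Ccne2 (−1.17), the E cyclins of entry into S phase, fell, the latter with exons that overlap Ints8 over 53.2% of their length. Uhrf1, which keeps DNA methylation through replication, fell from 150.4 CPM ± 13.9 with DMSO to 80.8 CPM ± 13.1 with GW3965, and Dtl fell by 1.04 on the log2 scale (SE 0.078). Mitotic genes fell less: Top2a had 753, 728, 702, 708 and 722 CPM and 540.1, 531, 544, 602 and 563 CPM (log2 fold change −0.38, SE 0.036, adjusted p = 7.33e-10), and Mki67, the Ki-67 antigen, −0.29 (SE 0.043). Pttg1, securin, was the exception and rose by 0.39 (SE 0.072). In bulk libraries fewer cells in cycle and less RNA per cell cannot be told apart. Of the p53 target and cell death genes 12 of 32 rose and 11 fell (10 and 14 with scaling by total counts alone), with Cdkn1a, the p21 inhibitor, at −0.29 (SE 0.036).

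**Figure D5:**
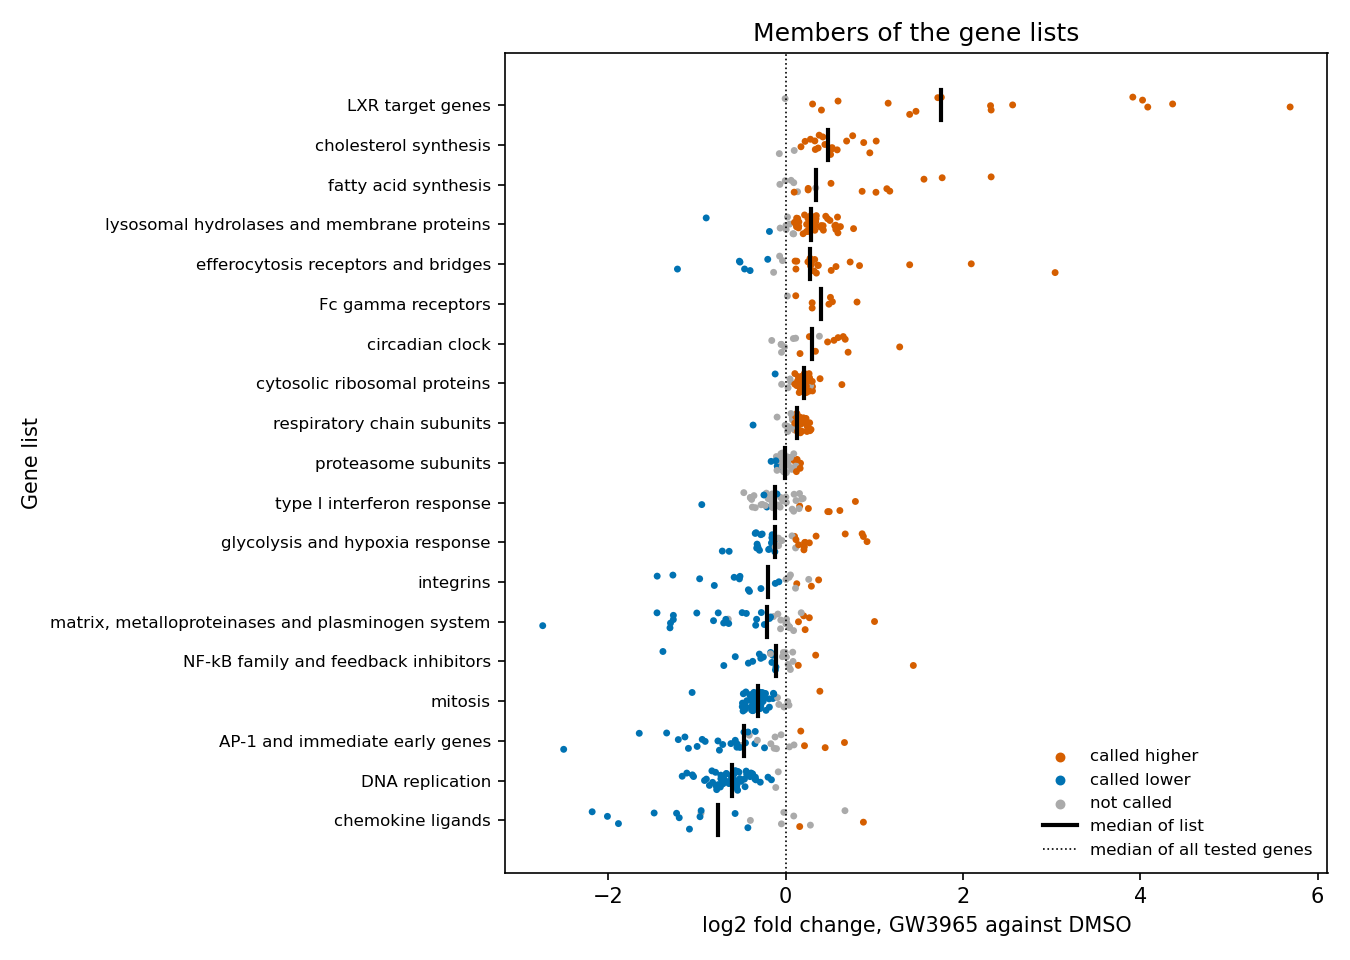
Log2 fold change of GW3965 against DMSO (horizontal axis) for the tested members of 19 gene lists (vertical axis), 1 point a gene, coloured by call, with the median of each list as a black bar and that of all tested genes as a dotted line. LXR targets and cholesterol synthesis lie mostly to the right of the dotted line, DNA replication and mitosis almost wholly to the left, and proteasome subunits around it.

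Lysosomal genes rose by modest amounts from high levels. Of 49 tested genes 40 rose and 2 fell (median 0.28). Ctsb, cathepsin B, had 8774, 8916, 8679.7, 8502 and 8246 CPM with DMSO and 13999, 13186, 12837, 11614 and 12213 CPM with GW3965 (log2 fold change 0.57, SE 0.042, adjusted p = 4.6e-12), the largest gain in CPM of any called gene, with exons that overlap Fdft1 over 16.3% of their length. Lgmn (0.77), Hexa (0.62), Ctsd (0.56) and Psap (0.50) rose too. Ctsl, cathepsin L, went the other way, from 2039, 2016, 2046, 2148 and 2336 CPM with DMSO to 1153, 1158, 1149.8, 1124 and 1105 CPM with GW3965 (log2 fold change −0.90, SE 0.036, adjusted p = 1.94e-18), and Ctsk fell by 0.18 on the log2 scale, a call lost under 7 alternatives (adjusted p up to 0.104). Tfec, a factor of the family of the lysosomal regulator TFEB, rose by 0.57 (SE 0.060), and Tfeb by 0.12 (SE 0.046), a call lost under 13 alternatives (adjusted p up to 0.285). Among genes of lipid-laden macrophages 13 of 23 rose and 7 fell: Fabp5 (0.97), Trem2 (0.37) and Gpnmb (0.23) rose, and Spp1, Itgax and Mmp12 fell.

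Receptors and bridging proteins for dead cells rose more often than they fell, 19 of 28 against 6. Beside Mertk, which rose from 116 CPM ± 12.98 with DMSO to 306 CPM ± 22.1 with GW3965 (log2 fold change 1.40, SE 0.069, adjusted p = 5.68e-13), its ligand Gas6 (0.73) and the related receptor Axl (0.28) rose, and Tyro3 fell by 0.46 on the log2 scale, a call lost with DESeq2 and without DMSO or GW3965 replicate 4 (adjusted p up to 0.122). Timd4, a phosphatidylserine receptor of resident macrophages, had 0.225, 0.189, 0.275, 0.313 and 0.109 CPM and 1.24, 0.889, 0.852, 1.04 and 0.888 CPM (log2 fold change 2.09, SE 0.30, adjusted p = 1.52e-06), low in both groups but without overlap. Scavenger and lipid uptake genes rose in 9 of 16 cases and fell in 2, while Cd36 had −0.068 (adjusted p = 0.138) and Msr1 −0.12 (adjusted p = 0.183). Of 8 Fc receptor genes 7 rose and none fell, Fcgr3 by 0.53 (SE 0.051). MHC class II presentation rose in 10 of 15 genes and fell in 1, with Ciita, its master regulator, at 1.59 (SE 0.28) and Cd74 at 0.41 (SE 0.058). Of ligands and receptors that regulate T cells 14 of 28 rose and 9 fell, Cd28 (1.69) and Cd86 (0.61) higher and Cd276 (−0.89) and Tnfsf9 (−1.54) lower. Over the 10 T and NK cell markers the summed level was 8.603 to 10.6 CPM with DMSO and 9.41 to 13.7 CPM with GW3965, and the T cell genes Cd3d, Cd3e and Cd3g had 0 to 4 counts per library beside the rise of Cd28. Ighm, an immunoglobulin heavy chain, rose from 32.1 CPM ± 11.4 with DMSO to 73.2 CPM ± 11.1 with GW3965 (log2 fold change 1.18, SE 0.20, adjusted p = 9.39e-05) while Pax5 had no count. The 6 B cell markers, Ighm included, summed to 25.1 to 51.4 CPM with DMSO and 61.6 to 89.0 CPM with GW3965.

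Complement genes split 8 higher and 6 lower of 22 (7 and 8 with scaling by total counts alone), with Cfp (properdin, 0.81) and C1qb (0.35) higher. Alternative activation genes fell in 8 of 17 cases and rose in 4. Factors of the macrophage lineage rose in 11 of 23 cases and fell in 6, with Spi1, the PU.1 factor, at −0.065 (adjusted p = 0.104).

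Among metabolic and housekeeping groups the shifts were small and often of one direction. Of 78 ribosomal protein genes 72 rose and 1 fell, with a median log2 fold change of 0.21 (65 and 1 with scaling by total counts, and 65 and 1 after a correction for exon length). Many of them have processed pseudogenes, and reads that fit several genes cannot be assigned with certainty from the counts. Respiratory chain subunits rose in 28 of 44 cases and fell in 1 (17 and 2 with scaling by total counts alone, and 2 fell without GW3965 replicate 4), with Cycs, cytochrome c, lower (−0.37). Proteasome subunits were mostly not called, 5 higher and 4 lower of 36 (1 and 12 with scaling by total counts alone). On leaving out single libraries 3 to 5 of them were higher, 3 without DMSO replicate 1 or 2 or GW3965 replicate 4 or 5, and 1 to 6 lower, 1 without DMSO replicate 5. Genes of glycolysis and the hypoxia response fell in 19 of 39 cases and rose in 13, with the glucose transporter gene Slc2a1 (−0.64), Pkm (−0.33) and Ldha (−0.34) lower and Aldoc (0.88) and Ndrg1 (0.86) higher. Fatty acid oxidation and PPAR target genes rose in 12 of 20 cases and fell in 1 (9 and 3 with scaling by total counts alone), with a median of 0.18, and 2 fell without GW3965 replicate 1.

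Iron genes rose in 10 of 17 cases and fell in 1 (8 and 2 with scaling by total counts alone). Slc40a1, ferroportin, had 299, 349, 316, 291 and 281 CPM with DMSO and 733, 741, 739, 670 and 709 CPM with GW3965 (log2 fold change 1.23, SE 0.042, adjusted p = 4.27e-20), and Ncoa4, which delivers ferritin to lysosomes, rose by 1.22 (SE 0.12). Hmox1, which frees iron from haem, had 0.042 (SE 0.090, adjusted p = 0.734). NRF2 targets and antioxidant enzymes split 12 higher and 9 lower of 29 (10 and 11 with scaling by total counts alone), and NAD metabolism 4 and 3 of 18 (4 and 5 with scaling by total counts alone). Chaperones and heat shock genes fell in 12 of 22 cases and rose in 2, with Hsp90aa1 at −0.34 (SE 0.050). Integrated stress and unfolded protein genes rose in 18 of 34 cases and fell in 7 (10 and 10 with scaling by total counts alone). Clock genes rose in 10 of 18 cases and none fell (8 and 2 with scaling by total counts alone, and 1 fell without GW3965 replicate 2), among those that rose the output factor Dbp (1.29, SE 0.11) and the REV-ERB genes Nr1d1 (0.59) and Nr1d2 (0.70), while Clock and Arntl had −0.046 (adjusted p = 0.366) and −0.049 (adjusted p = 0.52). Of retinoid, steroid and Nr4a receptor genes and their enzymes 13 of 26 rose and 4 fell, with Rara (0.64) and Cyp26b1 (1.44), which degrades retinoic acid, higher and Dhrs9 (−1.42) lower.

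Counted in CPM rather than in folds, the 10 called genes with the largest gains took up 24637 CPM more with GW3965. They were Ctsb, Apoe, Ctsd, Abca1, Selenop, Psap, Scd2, Mpeg1, Lpl and Abcg1. Selenop, the selenium carrier, rose from 1216 CPM ± 158 with DMSO to 3547 CPM ± 454 with GW3965 (log2 fold change 1.54, SE 0.10, adjusted p = 6.96e-10) and Mpeg1, perforin-2, from 3004 CPM ± 172 with DMSO to 4667 CPM ± 349 with GW3965 (log2 fold change 0.64, SE 0.052, adjusted p = 1.45e-10). The largest losses were in AY036118 and an adjoining gene model without a symbol on chromosome 17, and AY036118 went from 6341 CPM ± 984 with DMSO to 2817 CPM ± 1111 with GW3965 with a wide spread (log2 fold change −1.17, SE 0.42, adjusted p = 0.0304). That call was lost with no filter on low counts and without DMSO replicate 3 or 4 or GW3965 replicate 3 or 5, with adjusted p up to 0.074. The part of RNA quality in the losses of AY036118 and the adjoining model was not tested. Next came Ctsl, Spp1, Adam8, Mmp12, Flna, Dab2, Pkm and Vim, each with its libraries apart: the actin crosslinker Flna fell by 0.42 on the log2 scale (SE 0.055) and vimentin, Vim, fell by 0.25 (SE 0.032).

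At the other end, 68 called genes fell from at least 1 CPM with DMSO to under 1 CPM with GW3965. Beside Arg1, Ch25h and Il18rap they included Cd207, langerin (−2.28, SE 0.23), Cdh1, E-cadherin (−2.17, SE 0.41), Col14a1 (−1.82), Flrt3 (−1.75) and Dcstamp, which serves the fusion of osteoclasts (−1.69, SE 0.25). Other osteoclast markers fell too: Acp5 fell by 0.42 on the log2 scale (SE 0.077) and Mmp9 fell by 0.76 (SE 0.091), while Nfatc1 had 0.050 (adjusted p = 0.421). Over the 8 osteoclast markers the summed level was 142 to 160.5 CPM with DMSO and 120.2 to 140 CPM with GW3965. Exons of several other genes named above also overlap a second gene over more than 10% of their length, and reads from such stretches cannot be told apart: Mvd (36.2%), Egr2 (33.2%), Cxcl16 (30.4%), Dbp (21.3%), Selenop (12.1%), Hexa (11.1%), Arg1 (11%), Acsl3 (10.6%) and Lpcat3 (10.1%).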

How the data were processed

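Bulk RNA was sequenced from 20 cultures, 5 each with DMSO, DSHN, GW3965 and both compounds. Libraries were made with a stranded mRNA kit, per the labels' protocols. Each library's deposited file gives raw counts of reads by gene, which the authors made with STAR and featureCounts 2.0.0 on GRCm39 with RefSeq annotation, per the file headers and the submitters' processing notes. The commands in the headers name no option for strand, multi-mapped reads, read pairs or reads over several genes, so reads of either strand were counted together. Groups come from the titles and treatment labels.

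Of 46318 genes, 13307 passed edgeR's filterByExpr (minimum count 10, total 15). TMM factors, dispersions and a robust quasi-likelihood fit (edgeR 4.0.16, R 4.3.3) used all 20 libraries with 1 mean per treatment. Benjamini-Hochberg adjustment ran over all tested genes, and an adjusted p under 0.05 is a call. Standard errors are the fold change divided by the square root of F. Log2 CPM for principal components used a prior count of 2. Replicates of a group differed by more than sampling noise (chi-square per degree of freedom 2.63 to 12.2 over 20 pairs), and the common biological coefficient of variation was 0.0536. Library measures were compared by two-sided exact permutation, where 5 against 5 can give no p under 0.00794.

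The 43 pathway, 14 marker and 6 locus lists, the members and the rules were chosen with earlier results of these data known. Of 1301 different genes in the pathway and marker lists 1297 were matched to the files by symbol or older symbol. Named genes followed a rule: the 20 largest rises and falls among called genes with at least 5 CPM in a group and no overlap of libraries, leaving out gene models without a proper symbol, from each pathway list the 6 members of lowest adjusted p and at most 3 called against its majority, a fixed set of 17 genes, up to 8 per direction crossing 1 CPM, the 10 largest changes in CPM per direction and all members of the locus lists. Further list members, and marker genes, were named after their values were seen. Some genes that the rule names are not reported here. Lists are described by counts and medians, with no test of a list. Promoter sequences are RefSeq's, build GRCm38.p6, matched by GeneID. The test was tried on simulated counts with known changes. Alternatives were DESeq2 size factors, total counts, no filter and a stricter one (100 counts, and 1 CPM in 5 libraries), limma voom 3.58.1, DESeq2 1.42.0, only the 10 libraries, a replicate block, an offset on exon length, a test against a fold of 1.5 and leaving out each library.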

Additional observations from a re-analysis of the deposited data

Results flagged for a closer look

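Of 446 groups of 5 libraries looked at, 21 held a library set apart from the other 4 by more than 0.71 of the group's range (4.71%), and chance alone sets about 1 in 20 groups apart. In the DMSO group, replicate 1 was high for Sqle (61.5 CPM). Replicate 2 held the only DMSO count of Apoc1 (0.0473 CPM), replicate 3 was high for Mid1ip1 (79.0 CPM), and replicate 4 for Acsl5 (241 CPM) and Mexis (1.15 CPM, the others at 0.709 to 0.778). It was low for Neat1 (87.6 CPM). Replicate 5 was low for Relb (16.4 CPM) and Rxra (97.2 CPM). In the GW3965 group, replicate 1 was high for Acly (306 CPM), Ccl3 (22.1 CPM), Gdf15 (10.3 CPM), Il18bp (49.3 CPM), Spi1 (209.6 CPM) and Srebf2 (197 CPM) and low for Pf4 (139 CPM). Replicate 2 was high for Cfap126 (9.83 CPM) and Cxcl1 (0.741 CPM). Replicate 4 was high for Dhrs9 (6.31 CPM), Gpr84 (6.04 CPM, the others at 2.56 to 3.50), Hsd17b7 (25.7 CPM) and Mki67 (709.8 CPM, the others at 649 to 658).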

How the results depend on the processing

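Between 5661 and 6852 genes were called under the other scalings, filters, tools and fits and on leaving out single libraries, against 6181. Of the genes called here 86% to 99.4% were called again, all in the same direction. With no filter on low counts 242 genes were over 2-fold higher and 248 lower. Tested against a fold of 1.5 rather than no change, 308 genes were called, 159 higher and 149 lower. With scaling by total counts 1 fatty acid synthesis gene was called lower and 2 immediate early genes higher. Of the lysosomal genes 1 was called lower with no filter, with DESeq2 and without DMSO replicate 1 or 3 or GW3965 replicate 2 or 4, and the range on leaving out single libraries was 1 to 2. The difference in the share of the 100 most abundant genes was 1.251 to 1.62 percentage points without single libraries, with an adjusted p of 0.0794 without DMSO replicate 1, 2 or 5 (1.44, 1.43 and 1.39). It was 0.0397 without each of the other 7 libraries. That of the mitochondrial share was 0.0156 to 0.021, with an adjusted p of 0.0397 without GW3965 replicate 1 (0.0209). Of 4132 values of 218 named genes under alternatives, 71 lost the call, 29 gained one and 0 reversed a call; the causes were not tested.

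Same-numbered DMSO and GW3965 libraries deviated together with correlations of 0.0843 to 0.166, against −0.21 to 0.188 for other numbers, and 6 of 10 libraries correlated best with their own number, so, with same-number correlations all positive but not all over 0.1, the numbers were not taken to pair the cultures. With the replicate number as a block, 6852 genes were called against DMSO and 1460 against DSHN, where 2259 were called without it. In the block fit 8 interferon genes were called higher and 22 lower (6 and 4 without it), 7 genes of NAD metabolism higher and 3 lower (4 and 3), 13 PPAR and fatty acid oxidation genes higher and 2 lower (12 and 1), 4 scavenger receptors lower (2) and 2 respiratory chain subunits lower (1).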
